A study of Homo sapiens with 4 samples.

Results

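AP-1 is a family of transcription factors, and the 10 genes described here encode its FOS proteins (FOS, FOSB, FOSL1, FOSL2), its JUN proteins (JUN, JUNB, JUND) and the related proteins ATF3, BATF and BATF3. They were chosen by name, out of 20033 protein-coding genes annotated in GENCODE 44 on hg38, and every peak overlapping the gene or the 50 kb on either side of it was taken. MTF-1, the transcription factor that mediates the response to metals, was profiled by CUT&RUN, in which an antibody tethers a nuclease to the bound protein and the released DNA is sequenced. The cells were MDA-MB-231, an established human breast cancer line, passaged either in normal medium (control, 2 libraries) or in cadmium sulfate raised stepwise to 10 µM (cadmium-resistant cells, 2 libraries). The replicates of a condition had been merged before peaks were called, so there was 1 peak list per condition, giving where each peak begins and ends but no height. The depth of the libraries is unknown here, no spread between replicates could be measured, and the values below compare those lists without a test. The whole control list covered 130.4 Mb and the whole cadmium list 90.9 Mb, a ratio of 0.697, and its part in the differences around single genes was not tested.

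AP-1 proteins bind DNA as dimers through a basic leucine zipper. FOS proteins pair with JUN proteins, JUN proteins can also pair with each other, and ATF3, BATF and BATF3 pair mainly with JUN proteins. The dimers recognize TGACTCA or the cyclic AMP response element TGACGTCA. FOS, FOSB, JUN, JUNB and ATF3 are induced within minutes by growth factors and stress, cadmium among them, and FOSL1 is prominent in mesenchymal breast cancer lines. Expression of these genes was not analysed here.

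At the start of FOSL2, the AP-1 string (TGACTCA, or TGAGTCA on the other strand) lay within the 60 bases around the start of the canonical transcript, 40 before and 20 from the start, a stretch that held the string in 0.664% of all protein-coding genes. The choice of genes did not use it. The stretch lay inside an MTF-1 peak in both lists, and it is shown from hg38 in the direction of transcription, with the AP-1 string in capitals.
FOSL2 start, chr2:28392818-28392877, plus strand: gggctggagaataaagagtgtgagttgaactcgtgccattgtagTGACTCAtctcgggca

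JUN, JUND and ATF3 carried related strings just upstream of a start. Of the 10 genes, 8 had entries in the RefSeq promoter table (GRCh38.p14), and none of these had TGACTCA in the 250 bases before the start, a string that 4.2% of 35116 RefSeq promoters held on either strand. The RefSeq starts of ATF3 lay 43354 and 6257 bp from its canonical start, so the promoter of that canonical start is not among them. The JUN promoter held TGACATCA, a variant through which JUN dimers are known to act on their own gene, which was found in 2.37% of promoters. TGACATCA was also found once before the distal start of ATF3 (chr1:212565157-212565406), where peaks covered 206 bp in control and 250 bp in cadmium. JUND held TGACGTCA, found in 1.65%. The JUN and JUND promoters were fully covered by peaks in both lists, whereas the BATF promoter was not covered in either, and it is shown for that contrast with nothing in capitals. It held none of the strings above. The BATF and JUND promoters each held 1 core of the metal response element (TGCACNC or TGCGCNC on either strand), the element MTF-1 is known to bind. The JUN promoter held none, and 24.8% of promoters held it. A match is a description of the letters, not evidence of a bound site.
JUN promoter, chr1:58784048-58784297, minus strand: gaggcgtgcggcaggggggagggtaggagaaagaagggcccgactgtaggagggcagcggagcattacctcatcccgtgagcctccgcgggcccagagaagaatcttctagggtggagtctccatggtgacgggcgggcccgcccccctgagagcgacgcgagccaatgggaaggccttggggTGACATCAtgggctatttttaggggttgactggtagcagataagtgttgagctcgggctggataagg
JUND promoter, chr19:18281623-18281872, minus strand: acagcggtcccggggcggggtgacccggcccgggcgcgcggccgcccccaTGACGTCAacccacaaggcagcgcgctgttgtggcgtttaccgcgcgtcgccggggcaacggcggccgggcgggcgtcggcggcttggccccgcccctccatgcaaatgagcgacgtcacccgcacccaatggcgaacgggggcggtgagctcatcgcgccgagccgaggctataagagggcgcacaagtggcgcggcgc
BATF promoter, chr14:75522219-75522468, plus strand: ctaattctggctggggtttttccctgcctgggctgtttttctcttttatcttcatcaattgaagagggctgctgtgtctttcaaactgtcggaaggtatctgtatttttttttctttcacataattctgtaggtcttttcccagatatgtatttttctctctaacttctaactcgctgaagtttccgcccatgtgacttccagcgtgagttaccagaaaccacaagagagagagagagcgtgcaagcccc

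MTF-1 peaks lay at the start of 9 of the 10 genes in both lists. A start peak is one with a base within 1 kb of the canonical transcript start. Over all protein-coding genes, 65.5% had such a peak in both lists. BATF was the member with none in either list, as were 30.1% of protein-coding genes. The 9 start peaks were broad, with a median width of 10199 bp (range, 6199 to 21199) in the control list and 9799 bp (3799 to 23199) in the cadmium list. The medians over protein-coding genes with a start peak were 2599 bp (quartiles, 1799 to 4199) and 2199 bp (1599 to 3399), so all 9 lay above the upper quartile in both lists. For FOS, FOSB, FOSL1, JUNB and JUND the peaks covered 100% of the gene body in both lists.

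**Figure D1:**
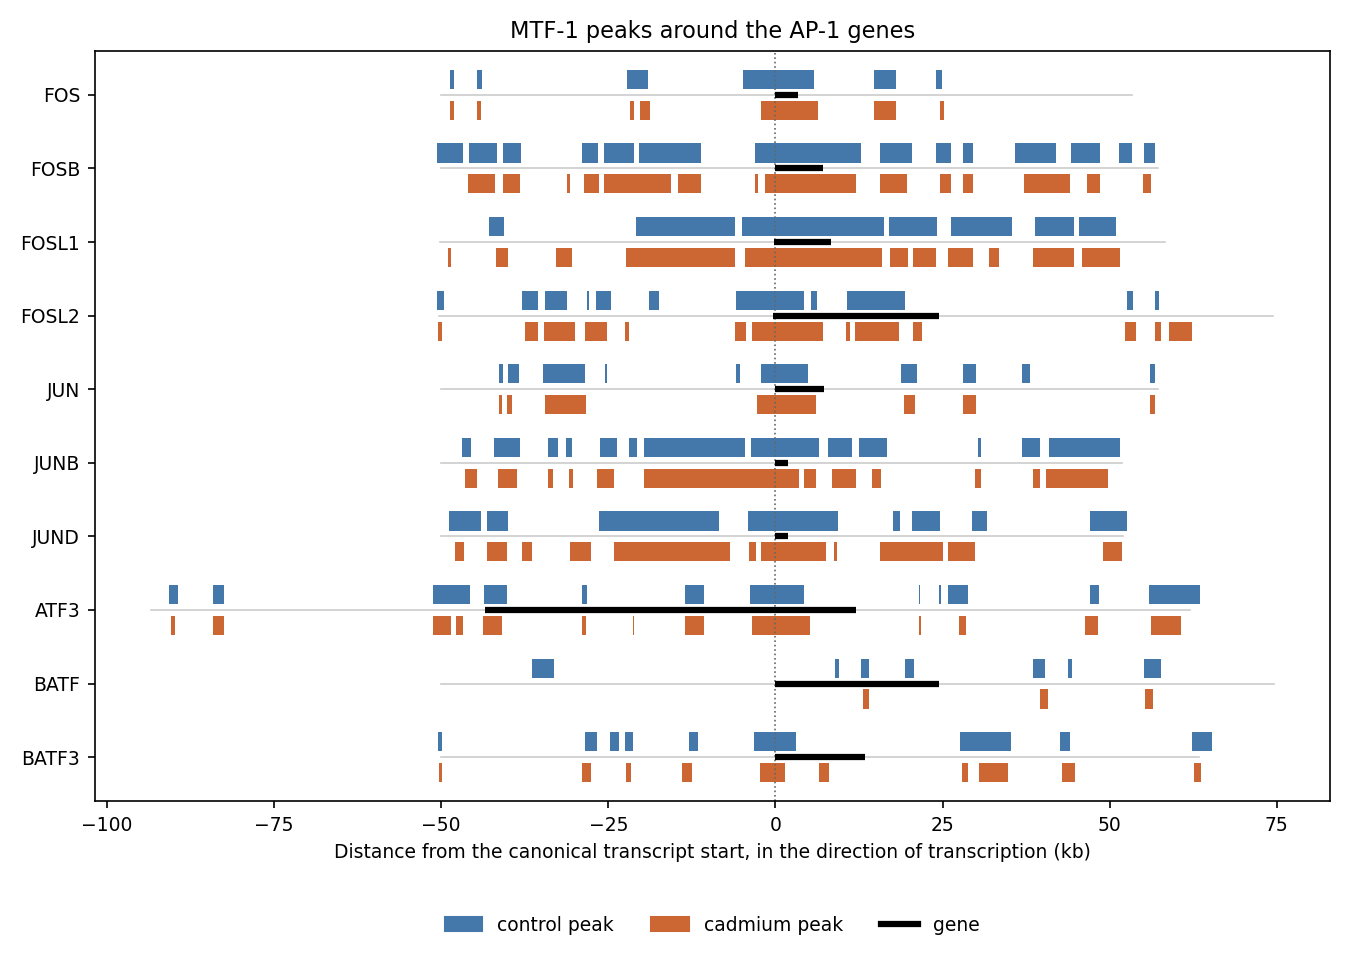
MTF-1 peaks around the 10 genes, drawn as boxes against the distance from the canonical transcript start in kb (upstream to the left), for the control list above each line and the cadmium list below it. Grey lines mark the gene with 50 kb on either side and black bars the gene; the 9 genes other than BATF have a peak over the start in both lists.

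The sites around these genes were mostly shared by both lists. Overlapping peaks of both lists (at least 1 shared base) were merged into conserved sites, while a control peak with no overlap was counted as a lost site and a cadmium peak with no overlap as a gained site. Together the windows held 99 distinct sites, of which 76 were conserved, 13 lost (13.1%; 95% Wilson interval, 7.84 to 21.2) and 10 gained (10.1%; 5.58 to 17.6). In the windows of all protein-coding genes 23.2% of 64074 sites were lost and 11.3% were gained. The members' sites were wider, with 425 kb in 99 sites against 131006 kb in those 64074. A conserved site needs only 1 shared base, and the part of site width in these shares was not tested. The intervals cover counting error only, and neighbouring sites are not independent. A lost site was found around 7 of the members, against 62.4% of protein-coding genes, and a gained site around 6, against 45.3%. FOSB, FOSL2, ATF3 and BATF3 had both kinds and FOS had neither. The numbers of members with each kind were thus close to the background.

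The lost sites and all but 1 of the gained sites lay away from gene starts. All 9 sites at the members' own starts were conserved, and a count of 0 lost of 9 allows a share of up to 29.9% by the Wilson interval. This count nearly repeats the presence of a start peak in both lists at these 9 members and is not separate support. The 9 sites were also wide, with 125 kb together against 184 kb for the 69 sites elsewhere. Of 21 sites at the start of another gene, 20 were conserved and 1 was gained, at MIR6088 upstream of FOSB. Of the 69 sites elsewhere, 13 were lost (18.8%; 11.4 to 29.6) and 9 were gained (13%; 7.02 to 23). Over the windows of all protein-coding genes, 7.70% of sites at a start were lost and 3.61% gained, whereas 28.6% of the sites away from starts were lost and 13.9% gained. Unique sites thus made up a larger share away from starts both around the members and in coding windows in general. Their lost sites had a median width of 1199 bp (399 to 3799) and their gained sites of 1499 bp (199 to 3399).

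**Figure D2:**
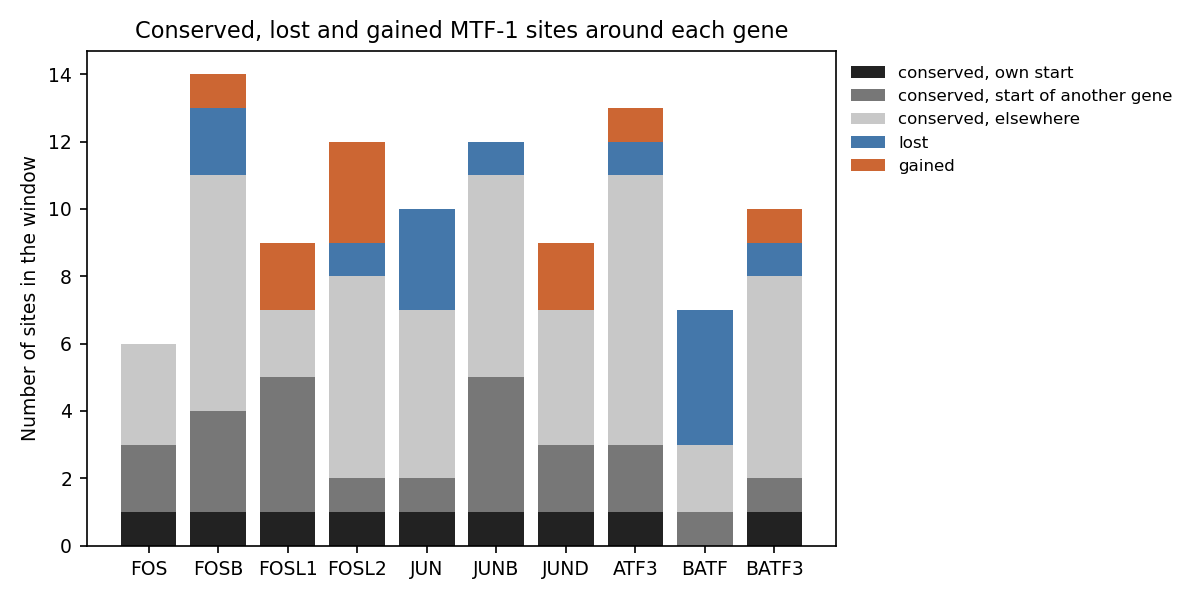
Number of MTF-1 sites around each gene, stacked by class: conserved sites at the gene's own start, at the start of another gene and elsewhere, then lost and gained sites. BATF has the most lost sites (4 of 7), FOSL2 the most gained sites (3 of 12), and FOS has 6 conserved sites and no others.

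In bases, the members' windows were covered to 374213 bp in the control list and 337696 bp in the cadmium list, out of 1113994 bp, with the stretch that the ATF3 and BATF3 windows share counted once. The cadmium to control ratio was 0.902 for the windows together. The median of the 10 ratios was 0.841 (quartiles, 0.811 to 0.96), beside a median of 0.75 (0.578 to 0.972) over the 18291 coding windows with peaks in both lists. FOSL2 and JUND were the 2 members covered by more bases in the cadmium list, as were 21.3% of coding windows. BATF was the 1 member with at least 1.5 times fewer bases in the cadmium list, as were 37.9% of coding windows. Peaks covered a median of 23.7% of the members' windows in the control list and 24.7% in the cadmium list, against 6.81% and 4.93% for coding windows. The higher median in cadmium is not a general rise, since the share was lower in cadmium at 8 of the 10 members. FOSL2, 1 of the 2 middle values in each list, went from 25.3% to 30.2%, and JUND was the other member with a higher share.

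**Figure D3:**
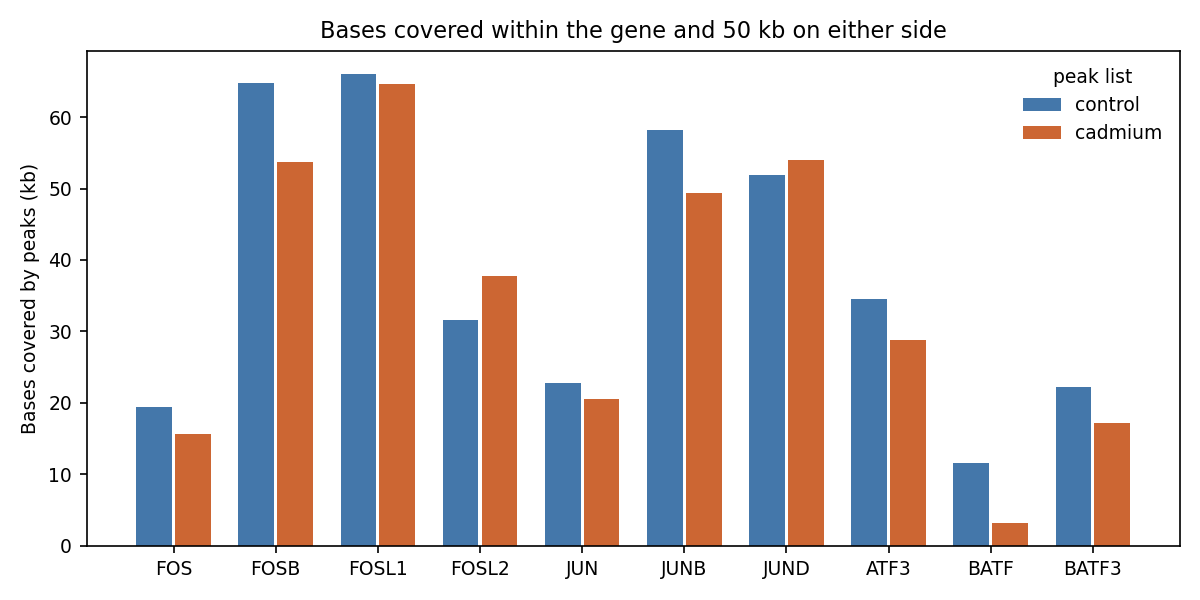
Bases covered by MTF-1 peaks (kb) within each gene and 50 kb on either side, in the control and cadmium lists. FOSL1 has the highest bars in both lists (65993 and 64589 bp), and FOSL2 and JUND have the higher bar in the cadmium list.

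**Figure D4:**
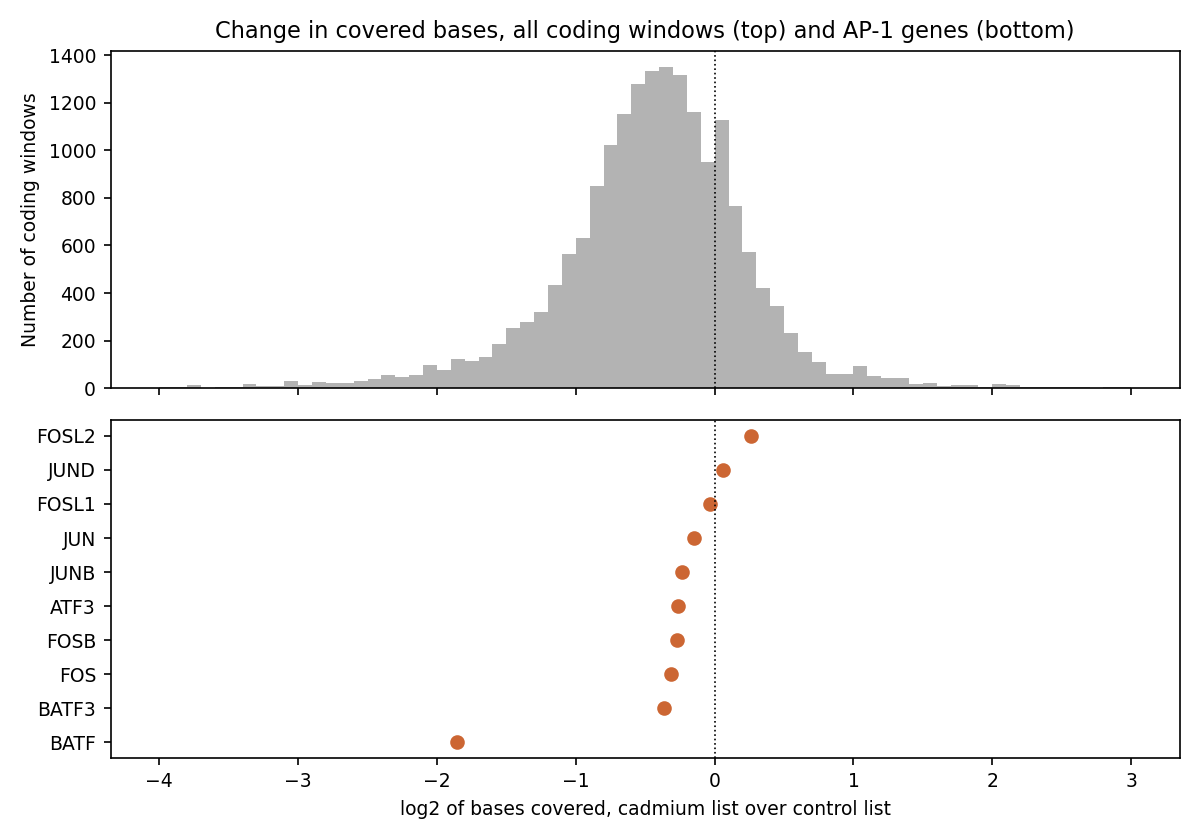
Change in covered bases, as the log2 of cadmium over control. The upper panel shows the number of coding windows in bins of the ratio between -4 and 3, and the lower panel shows 1 point per AP-1 gene; BATF, at -1.86, stands apart from the other 9.

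FOS encodes c-Fos, which binds DNA as a partner of JUN proteins. The gene (ENSG00000170345, chr14:75278826-75282230, plus strand) stood without another protein-coding start in its window. All 6 of its sites were conserved, and 2 had the same edges in both lists. The start peak spanned 10599 bp in the control list and 8599 bp in the cadmium list. It reached 4827 bp upstream of the start in control and 2227 bp in cadmium, and downstream it reached 5771 and 6371 bp. The cadmium peak was thus shorter upstream and slightly longer downstream. The window was covered by 19394 bp in control and 15593 bp in cadmium, a ratio of 0.804. More than 50% of those bases lay in the start site in each list (54.7% and 55.1%), a larger share than for any other member.

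FOSB, a FOS protein known for its induction in the brain and in bone, lies near ERCC1 and VASP (chr19:45467995-45475179, plus strand). Its window held 14 sites, the most of the family, of which 11 were conserved. Coverage was 64792 bp in control and 53786 bp in cadmium, a ratio of 0.83. The start peak was 15799 bp wide in control and 13599 bp in cadmium. The lost sites lay in exons of ERCC1, a DNA repair gene (chr19:45417401-45421199, 3799 bp, 48.7 kb upstream), and in VASP (chr19:45519401-45521399, 1999 bp, 52.4 kb downstream). The gained site was 399 bp wide (chr19:45436801-45437199), in an ERCC1 intron.

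FOSL1, which encodes FRA1, had the widest control start peak of the family (chr11:65892049-65900573, minus strand). It was 21199 bp wide in control and 20599 bp in cadmium, wider than 99.5% and 99.6% of the start peaks of protein-coding genes. The peak also held the starts of FIBP and CCDC85B, and the window held 10 protein-coding starts, the most in the family. Coverage was 65993 bp in control and 64589 bp in cadmium, a ratio of 0.979, which left FOSL1 nearly even between the lists. No site was lost, and 2 were gained upstream. One was intergenic (chr11:65930801-65933199, 2399 bp, 31.6 kb away), and the other was 399 bp wide in an intron of TSGA10IP (chr11:65949001-65949399, 48.8 kb away).

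FOSL2, which encodes FRA2, had the highest ratio of the family (chr2:28392448-28417317, plus strand). Coverage was 31542 bp in control and 37740 bp in cadmium, a ratio of 1.2, higher than 89.1% of coding windows. The ratio was 0.99 when 20 kb on either side was taken, so the additional bases lay in the outer parts of the window. Its 12 sites included 8 conserved, 1 lost and 3 gained. The gained sites lay 22.2 kb upstream (chr2:28370401-28370999, 599 bp, intergenic), 21.2 kb downstream in the untranslated last part of the gene (chr2:28413401-28414799, 1399 bp) and 60.6 kb downstream (chr2:28451801-28455199, 3399 bp, intergenic). The lost site was between the upstream gained site and the start (chr2:28374001-28375399, 1399 bp). At the start, the peak measured 10199 bp in control and 10599 bp in cadmium. Its upstream reach was 5857 bp in control and 3457 bp in cadmium, and its downstream reach 4341 and 7141 bp. These are the reaches of the peak over the start alone, and a gap fell differently in each list. In cadmium a separate peak at chr2:28386801-28388399 belonged to the same site and began upstream of the control peak (chr2:28387001-28397199), and in control a separate peak lay downstream (chr2:28398201-28398999). The upstream gained site held 1 AP-1 string, shown in capitals with the hg38 bases around it.
FOSL2 gained site, chr2:28370413-28370612, plus strand: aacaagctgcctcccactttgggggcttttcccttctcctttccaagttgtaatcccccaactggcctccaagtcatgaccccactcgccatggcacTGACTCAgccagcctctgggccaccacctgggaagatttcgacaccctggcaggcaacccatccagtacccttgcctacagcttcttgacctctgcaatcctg

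JUN encodes c-Jun, which can bind AP-1 sites without a FOS partner (chr1:58776845-58784048, minus strand). Coverage was 22790 bp in control and 20593 bp in cadmium, a ratio of 0.904, and the ratio was 1.04 within 20 kb. The start site and the rest of the window went opposite ways. The start peak was 6999 bp wide in control and 8799 bp in cadmium, a ratio of 1.26, and it reached farther in cadmium on both sides (2152 and 2752 bp upstream, 4846 and 6046 bp downstream). The remaining sites were covered by 15791 bp in control and 11794 bp in cadmium, a ratio of 0.747. All 3 of the unique sites were lost. They lay 37.4 kb downstream of the start (chr1:58746001-58747199, 1199 bp) and, in introns of LINC01135, 5.65 kb upstream (chr1:58789401-58789999, 599 bp) and 25.4 kb upstream (chr1:58809201-58809599, 399 bp). The downstream one held an AP-1 string, in capitals.
JUN lost site, chr1:58746856-58747055, plus strand: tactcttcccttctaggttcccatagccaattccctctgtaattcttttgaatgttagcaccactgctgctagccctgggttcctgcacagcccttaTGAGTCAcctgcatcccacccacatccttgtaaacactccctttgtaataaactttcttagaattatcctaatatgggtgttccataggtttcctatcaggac

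JUNB, often a weaker activator than JUN, shares a gene-dense stretch with HOOK2, PRDX2 and RNASEH2A (chr19:12791486-12793315, plus strand), with 8 protein-coding starts in its window. The start peak was 10199 bp wide in control and 23199 bp in cadmium, which is the largest ratio of the family, 2.27. This came from where a gap between peaks fell. In control, peaks at chr19:12771801-12786999 and chr19:12787801-12797999 were divided upstream of JUNB, and in cadmium, peaks at chr19:12771801-12794999 and chr19:12795801-12797599 were divided downstream of it. The bases covered over the whole conserved site were 25398 in control and 24998 in cadmium, a ratio of 0.984. The rest of the window had a ratio of 0.744, and coverage in all was 58187 bp and 49388 bp (0.849). Of 12 sites, 1 was lost, in HOOK2 (chr19:12769601-12770799, 1199 bp).

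JUND, the JUN gene that is expressed most constantly across cell types, was the JUN gene with more bases in the cadmium list (chr19:18279694-18281622, minus strand). Coverage was 51899 bp in control and 53989 bp in cadmium, a ratio of 1.04, which became 0.973 when 100 kb on either side was taken. Here the start site had fewer bases in the cadmium list and the rest of the window had more. The start peak measured 13599 bp in control and 9799 bp in cadmium, where the site was broken into pieces that summed to 11197 bp, a ratio of 0.823. The rest of the window was covered by 38300 bp and 42792 bp, a ratio of 1.12. No site was lost and 2 were gained, both upstream in LSM4, a gene for an RNA-binding protein (chr19:18309201-18312399, 3199 bp, and chr19:18318001-18319599, 1599 bp). The wider of these held 1 AP-1 string, in capitals.
JUND gained site, chr19:18310237-18310436, plus strand: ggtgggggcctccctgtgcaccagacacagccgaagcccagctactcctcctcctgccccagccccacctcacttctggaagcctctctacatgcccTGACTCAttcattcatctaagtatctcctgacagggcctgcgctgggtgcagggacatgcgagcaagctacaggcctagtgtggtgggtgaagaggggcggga

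ATF3, a stress-induced partner of JUN, has a distal start besides the canonical one (chr1:212565334-212620777, plus strand). The canonical start peak was 7999 bp wide in control and 8799 bp in cadmium, a ratio of 1.1. The rest of the window was covered by 26567 bp in control and 19988 bp in cadmium, a ratio of 0.752, as at JUN a lower ratio than at the start. Coverage in all was 34566 bp and 28787 bp (0.833). A conserved site also lay over the distal start (chr1:212565001-212568599). Of 13 sites, 11 were conserved, 1 was lost (chr1:212633201-212633599, 399 bp, intergenic) and 1 was gained in an ATF3 intron (chr1:212587401-212587599). The gained site was 199 bp wide, the narrowest around any member, and it is shown whole because it held no AP-1 string.
ATF3 gained site, chr1:212587401-212587599, plus strand: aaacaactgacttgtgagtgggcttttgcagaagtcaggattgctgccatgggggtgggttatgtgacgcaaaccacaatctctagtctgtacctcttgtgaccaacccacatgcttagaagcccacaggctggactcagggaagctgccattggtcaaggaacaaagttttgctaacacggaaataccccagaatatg

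BATF, which is known for its role in lymphocytes, stood apart from the other members (chr14:75522455-75546993, plus strand). No peak lay within 1 kb of its start in either list. The nearest peak edge was 8932 bp downstream in the control list, at a lost site, and 13132 bp downstream in the cadmium list. Coverage of its window was 11593 bp in control and 3197 bp in cadmium, a ratio of 0.276, lower than at most coding windows (percentile 3.57). Peaks covered 13% of the gene body in control and 3.26% in cadmium. Of 7 sites, 4 were lost, 3 were conserved and none was gained. The lost sites included 2 in BATF introns (chr14:75531401-75531999, 599 bp, and chr14:75541801-75543199, 1399 bp). The widest lay 34.8 kb upstream, between JDP2 and BATF (chr14:75486001-75489399, 3399 bp), and the last was intergenic downstream (chr14:75566201-75566799, 599 bp). The upstream lost site held AP-1 strings, 1 of which is in capitals.
BATF lost site, chr14:75487435-75487634, plus strand: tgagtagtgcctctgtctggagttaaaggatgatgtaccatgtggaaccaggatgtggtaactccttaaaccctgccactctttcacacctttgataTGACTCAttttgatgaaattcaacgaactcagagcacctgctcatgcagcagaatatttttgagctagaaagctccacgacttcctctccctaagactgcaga

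BATF3, which is required for one lineage of dendritic cells, lies downstream of ATF3 and shared 3 sites with its window (chr1:212686417-212699840, minus strand). Its start peak was the narrowest of the 9, with 6199 bp in control and 3799 bp in cadmium, and the ratio of 0.613 was the lowest. The peak was shorter on both sides in cadmium (3159 and 2359 bp upstream, 3039 and 1439 bp downstream). Coverage of the window was 22216 bp in control and 17215 bp in cadmium, a ratio of 0.775. Of 10 sites, 1 was lost upstream (chr1:212723201-212724599, 1399 bp) and 1 was gained in a BATF3 intron (chr1:212691801-212693399, 1599 bp, 7.24 kb from the start). No other gained site lay as close to the start of its member.

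At the starts, the cadmium peak reached less far upstream for 7 of the 9 members with a start peak, with JUN and JUNB as the exceptions, compared with 47.3% of the 13131 protein-coding genes with a start peak in both lists. It reached farther downstream for 4 (FOS, FOSL2, JUN and ATF3), compared with 23.3%. Both counts take the peak over the start alone and move with where a gap fell. At FOSB, FOSL2 and JUND the cadmium list held a separate upstream piece of the same site, which began at the same base as the control peak at FOSB (chr19:45465001-45465399), upstream of it at FOSL2 and just short of it at JUND (chr19:18284601-18285599). At FOS, FOSL1, ATF3 and BATF3, where the site was 1 peak in each list, the upstream edge itself was closer to the start in cadmium. The upstream reach in control and cadmium was 4827 and 2227 bp at FOS and 3159 and 2359 bp at BATF3. It differed little at FOSL1 (5011 and 4611 bp) and ATF3 (3760 and 3560 bp), given that peaks start on multiples of 200 bp. The bases of the start site, in cadmium over control, had a median ratio of 0.972 (0.613 to 1.26) over the 9 members. The 20 conserved sites at the start of another gene had a median of 0.945, with 11 wider in control, 5 wider in cadmium and 4 equal. The conserved sites away from starts had a median of 0.823, with 31 of 47 wider in control, 9 wider in cadmium and 7 equal. In coding windows the medians were 0.867 at the start of any gene and 0.8 away from starts.

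**Figure D5:**
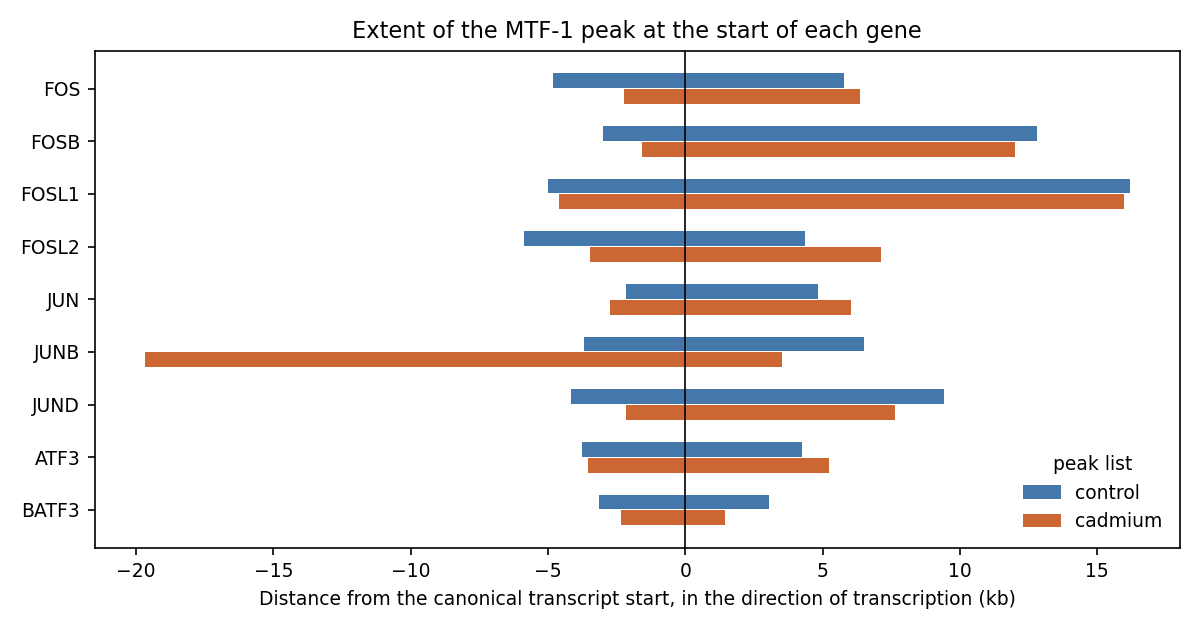
Extent of the peak over the start of each of the 9 genes that had one, in kb from the canonical transcript start (upstream to the left), in the control and cadmium lists; separate pieces of the same site are not drawn. The cadmium bar ends closer to the start on the upstream side at every gene except JUN and JUNB, and at JUNB it extends 19685 bp upstream.

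The AP-1 string was present in 58 of the 99 sites (58.6%; 48.7 to 67.8), compared with 49% of the sites in all coding windows. The order was the other way in the central 500 bp of the sites, where 17.2% of the members' sites and 23.3% of those in coding windows held it. It was also the other way per length, with 0.254 strings per kb in the members' sites and 0.349 per kb in coding windows. At the members' own starts 8 of 9 sites held the string, all but that of FOS, against 42.3% of conserved starts in coding windows. Per length the order was again the other way, at 0.168 per kb against 0.189 per kb. In the central 500 bp none of the members' own start sites held it, against 8.15% of conserved starts in coding windows. Of the gained sites 3 of 10 held it (30%; 10.8 to 60.3) and of the lost sites 4 of 13 (30.8%; 12.7 to 57.6), beside 41.4% of gained and 40.8% of lost sites in coding windows, which differ from them in width. Per length, gained sites in coding windows held 0.589 strings per kb and lost sites 0.384. The members' values were 0.197 and 0.272, which rest on 3 and 5 matches. In the central 500 bp, 30.9% of gained and 23.5% of lost sites in coding windows held it, beside 20% and 15.4% at the members. TGACGTCA was found in 6 of the 99 sites (6.06%; 2.81 to 12.6), beside 2.17% of sites in coding windows and 5.76% of conserved sites at starts there. Per length it was found at 0.0165 per kb in the members' sites and 0.0114 per kb in coding windows, and the 6 sites held 7 matches. The core of the metal response element, to which MTF-1 is known to bind (TGCACNC or TGCGCNC on either strand), was found in 76 sites (76.8%), against 64.9% of sites in coding windows. Per length it was found at 1.35 per kb against 1.09 per kb. In the central 500 bp the shares were close, at 36.4% and 35.6%. The median share of G and C bases was 51.6% in the members' sites and 48.3% in coding windows, and its part was not tested.

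Other genes of the pathway also had MTF-1 peaks at their starts in both lists. This held for 17 of 17 other leucine zipper partners, for 11 of 12 kinases and ternary complex factors, with MAPK10 (which encodes a kinase of JUN proteins) without a peak in either list, and for 9 of 9 other immediate early genes, beside 65.5% of protein-coding genes. Their median ratios of covered bases were 0.834, 0.693 and 0.866, beside 0.75 over coding windows. More bases in the cadmium list were seen for 4 of 17, 4 of 12 and 1 of 9, beside 21.3% of coding windows. JDP2, which encodes a repressor of AP-1 and lies next to BATF, had the lowest ratio of the partners, 0.327, and its window shared the intergenic lost site with that of BATF. SRF, a regulator of the FOS promoter, had the lowest among the kinases and ternary complex factors, 0.386.

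The genes whose coverage was most like that of JUN and FOSL1 were named by the distance over 4 values, the log2 of 1 plus the bases covered at the start and in the window in each list. For JUN these were VWA1, CREB3 and ZBTB47, at distances of 0.160, 0.359 and 0.363 among 20031 genes. VWA1 had a start peak of 7399 bp in control and 8599 bp in cadmium, wider in cadmium as at JUN. These widths were among the values used to pick it, so this likeness follows from the choice. For FOSL1 they were SOX18, NIBAN2 and ACTG1, at 0.360, 0.409 and 0.434 among 20019 genes.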

How the data were processed

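CUT&RUN for MTF-1 was performed on 2 control and 2 cadmium libraries of MDA-MB-231 cells. Per the labels and the study's methods, the authors removed adaptor sequence, mapped the reads with Bowtie2 (hg38), pooled both replicates per condition using SAMtools (1.8) and called peaks with Epic2 at default parameters, a reimplementation of SICER (0.0.50 in the submitters' notes). No control library is named for the calling. The deposited lists give each peak's position in base pairs and a last score column that holds the same value throughout and was not used. Peaks start on multiples of 200 bp. A site near the caller's threshold can therefore appear in 1 list by a small difference in signal, and a gap between peaks can move.

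Gene positions were taken from GENCODE 44, and promoters from RefSeq (8 of the 10 genes matched). Sites, bases covered within 50 kb and strings on both strands were computed in Python (3.11.15) with numpy (2.4.6), and figures were drawn with matplotlib (3.10.9). The sorting of peaks into sites and the counting of covered bases were tested on simulated data. Each simulated conserved site was 1 peak in each list, so sites in several pieces were not simulated. Intervals are 95% Wilson intervals and cover counting error only. A site was placed at a start when it had a base within 1 kb of a gene's canonical start. Distances of lost and gained sites in kb run from the member's start to the centre of the site. The members and lists were chosen with earlier results of these data known. All 10 members are named, other pathway genes where they lacked a start peak, and the 3 genes most like JUN and FOSL1. JDP2 and SRF were named after their values were seen. With 1 list per condition no test was made. The alternatives were the window, the reach of a start, the overlap, a minimum width and the searched stretch. Expression, accessibility and read signal were not analysed here. The sequence at the start of 1 member is not reported here.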

Additional observations from a re-analysis of the deposited data

How the results depend on the processing

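Of 65 values recomputed under alternative settings, 53 moved by less than their counting interval or by less than 1.5 times, 9 moved by more and 3 changed direction. With 20 kb on either side of the genes there were 33 conserved, 6 lost and 3 gained sites, and with 100 kb there were 128, 25 and 21, since the windows hold less or more sequence. With a shared peak defined by 50% coverage in the opposite list, 28 sites were lost and 39.3% of the distal sites were unique to 1 list. With 1 shared base these values were 13 and 25.6%. No share over coding windows is given for the 50% rule. The lower share of lost sites around the members than in coding windows is therefore shown only for the rule of 1 shared base. The AP-1 string was found in 17.2% of sites when 500 bp around the centre were searched, which is less sequence than whole sites, and in 23.3% of the sites in coding windows, so the members lay below the background there and above it over whole sites. With 20 kb the ratio of bases was 0.99 at FOSL2 and 1.04 at JUN, and with 100 kb it was 0.973 at JUND, each on the other side of 1. The presence of a start peak at 9 members in each list was the same under a reach of 3 kb, any annotated start and a minimum width of 1000 bp. No paired analysis was possible because the replicates of each condition were merged before peak calling, and for the same reason no replicate could be left out. Without reads or depth, narrow sites in 1 list could not be told apart from sites close to the threshold in the other.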
